A study of Mus musculus with 6 samples.

Results

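The genes described here were the phase II conjugating enzymes of the mouse intestinal crypt: every row of the expression table whose symbol begins with Gsta, Gstk, Gstm, Gsto, Gstp, Gstt or Gstz and a digit (glutathione S-transferases), with Ugt1a, Ugt2a or Ugt2b (UDP-glucuronosyltransferases), or with Sult and a digit (sulfotransferases). The symbols alone chose 61 of the 24736 genes, namely 22 Gst, 18 Ugt and 21 Sult genes. RNA-seq was performed on crypts of 3 wild-type (WT) mice and 3 mice labelled Mtg16-/-, which are meant to lack the transcriptional co-repressor MTG16 (gene Cbfa2t3). All mice were males of 12 weeks, and the crypts of the full-length gut were released in 2 mM EDTA for 30 minutes and left untreated. The comparison asks what loss of MTG16 does to gene expression in these crypts. The labels call the knockout CRISPR induced, whereas the study's methods describe mutant mice received from another laboratory, and strain is not given in the sources used here.

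Phase II enzymes attach a large polar group to drugs, dietary compounds, steroids, bilirubin and lipid peroxidation products, so that the conjugate can be pumped out of the cell. Glutathione transferases use the tripeptide glutathione, UDP-glucuronosyltransferases use glucuronic acid carried on UDP, and sulfotransferases use the sulfate donor PAPS. In the intestine these enzymes are best known from absorptive enterocytes, the first cells to meet what is swallowed.

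Expression was given as TPM, the abundance of a transcript relative to all transcripts of its library, a level that corrects for transcript length, so levels of different genes can be set side by side. Genes averaging at least 1 TPM across the libraries were tested, differences are Mtg16-/- minus WT on the log2(TPM + 1) scale with their standard errors, and a gene was called at an adjusted p under 0.1 by limma. This filter kept 37 of the 61 genes (19 Gst, 12 Ugt and 6 Sult). No depth can be read from TPM, so a value of 0 is stated as listed at 0. Cbfa2t3 itself stood at 3.67, 6.69 and 4.52 TPM in the WT libraries and at 4.62, 6.43 and 3.23 TPM in the libraries labelled Mtg16-/- (log2 difference -0.06 ± 0.27, adjusted p = 0.937). The ranges overlapped, so the RNA level of the targeted gene did not separate the genotypes, and directions below rest on the labels. WT replicate 1 stood apart from the other libraries: the summed level of 28 enterocyte markers was 53810 TPM there, against 19222 and 23670 TPM in the other WT libraries and 10003 to 19563 TPM in Mtg16-/-. Mtg16-/- replicate 3 lay at the other end, with the lowest of these sums (10003 TPM), and it and WT replicate 1 correlated least of any pair (r = 0.931). Leaving out WT replicate 1 removes the high end alone. Apart from that of Cbfa2t3, for which no value without WT replicate 1 is given here, printed differences are given both ways where they depended on that library. This was done where they moved by over 1.5 times or changed sign without WT replicate 1.

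The upstream sequences of 5 transferase genes are shown to let the genes with the widest separations be compared: those whose groups did not overlap and whose log2 difference exceeded 1 in size, a choice made after their values were seen. None of them passed the test, and Sult1a1 reached the filter only through the group where it was higher. They are GRCm38.p6 RefSeq sequences read 5′ to 3′ on the gene's own strand, from 250 to 41 bases before the transcript start listed by RefSeq. For Sult1a1 that start is internal, since the gene spans 126672865 to 126690443 on the minus strand, and for Gsta3 it lies slightly inside the gene. Capitals mark matches, on either strand, to 5 letter patterns: TGACNNNGC (antioxidant response element core), GCGTG (xenobiotic response element core), GTTAAT (HNF1 core), CAAAGTCCA (an HNF4 repeat) and CAGNTG (E-box).
Sult6b2, chr6:142804507-142804716, minus strand: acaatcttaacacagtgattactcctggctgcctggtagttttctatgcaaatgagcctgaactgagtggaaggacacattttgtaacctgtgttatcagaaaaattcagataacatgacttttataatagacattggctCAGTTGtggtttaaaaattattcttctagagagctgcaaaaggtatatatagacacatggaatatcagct
Gsta1, chr9:78230419-78230628, plus strand: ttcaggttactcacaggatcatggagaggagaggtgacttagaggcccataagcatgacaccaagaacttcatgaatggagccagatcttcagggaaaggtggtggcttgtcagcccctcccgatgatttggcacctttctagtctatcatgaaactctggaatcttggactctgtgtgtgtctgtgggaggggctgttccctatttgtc
Ugt1a2, chr1:88200361-88200570, plus strand: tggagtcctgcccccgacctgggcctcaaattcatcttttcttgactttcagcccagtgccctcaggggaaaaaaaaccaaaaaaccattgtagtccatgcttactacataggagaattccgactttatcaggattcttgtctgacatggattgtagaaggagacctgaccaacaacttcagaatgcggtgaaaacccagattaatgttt
Gsta3, chr1:21240335-21240544, plus strand: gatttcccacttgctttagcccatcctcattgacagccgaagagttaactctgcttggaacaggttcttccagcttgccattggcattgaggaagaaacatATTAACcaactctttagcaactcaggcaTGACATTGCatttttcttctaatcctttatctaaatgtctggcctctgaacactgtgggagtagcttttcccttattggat
Sult1a1, chr7:126676459-126676668, minus strand: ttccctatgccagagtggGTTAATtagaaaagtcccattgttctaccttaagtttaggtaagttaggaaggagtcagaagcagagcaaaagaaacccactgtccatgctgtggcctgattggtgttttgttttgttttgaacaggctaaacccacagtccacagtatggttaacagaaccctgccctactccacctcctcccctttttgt
The windows of Sult6b2, Gsta1 and Ugt1a2 held 1 E-box (Sult6b2, 110 bases before the start) and no other match. The window of Gsta3 held an antioxidant response element core at 121 bases and an HNF1 core at 149 bases, and that of Sult1a1 an HNF1 core at 232 bases. The 5 genes were picked by their differences, so the matches are not read against direction. Over the 250 bases before any listed start of a gene, the antioxidant core was found in 3 of the 34 tested transferase genes with a window (Gsta3, Gstm5 and Gstm7) and in 11.5% of all 27025 genes counted the same way. The HNF1 core was found in 7 of the 34 (7.49% of all genes), the xenobiotic core in 8 (30.9%), the E-box in 14 (48.2%) and the HNF4 repeat in none (0.451%). Besides Gsta3 and Sult1a1, the genes with an HNF1 core were Sult1d1, Ugt1a1, Ugt1a6a, Ugt1a9 and Ugt2a3, whose groups overlapped. These matches describe letters and not binding.

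No transferase gene passed the test between genotypes. Of the 37 tested, 0 were called, against 4 of 12268 genes over the whole table (0.0326%). At an unadjusted p under 0.05, 8 of the 37 were lower and 4 higher in Mtg16-/- (21.6% and 10.8%), beside 8.05% and 6.53% of all tested genes. The WT and Mtg16-/- values did not overlap for 5 lower genes (Sult6b2, Gsta1, Ugt1a2, Ugt1a5 and Gstk1; 13.5%, against 11.1% of all tested genes) and for 3 higher genes (Gsta3, Sult1a1 and Gstz1; 8.11%, against 9.94%), shares near the background. The median log2 difference was -0.08 over the 37 genes and -0.03 over all tested genes. It was -0.05 for Gst, -0.17 for Ugt and -0.12 for Sult genes, and 22 of the 37 differences were below 0 (59.5%, against 53.6% of all tested genes).

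**Figure D1:**
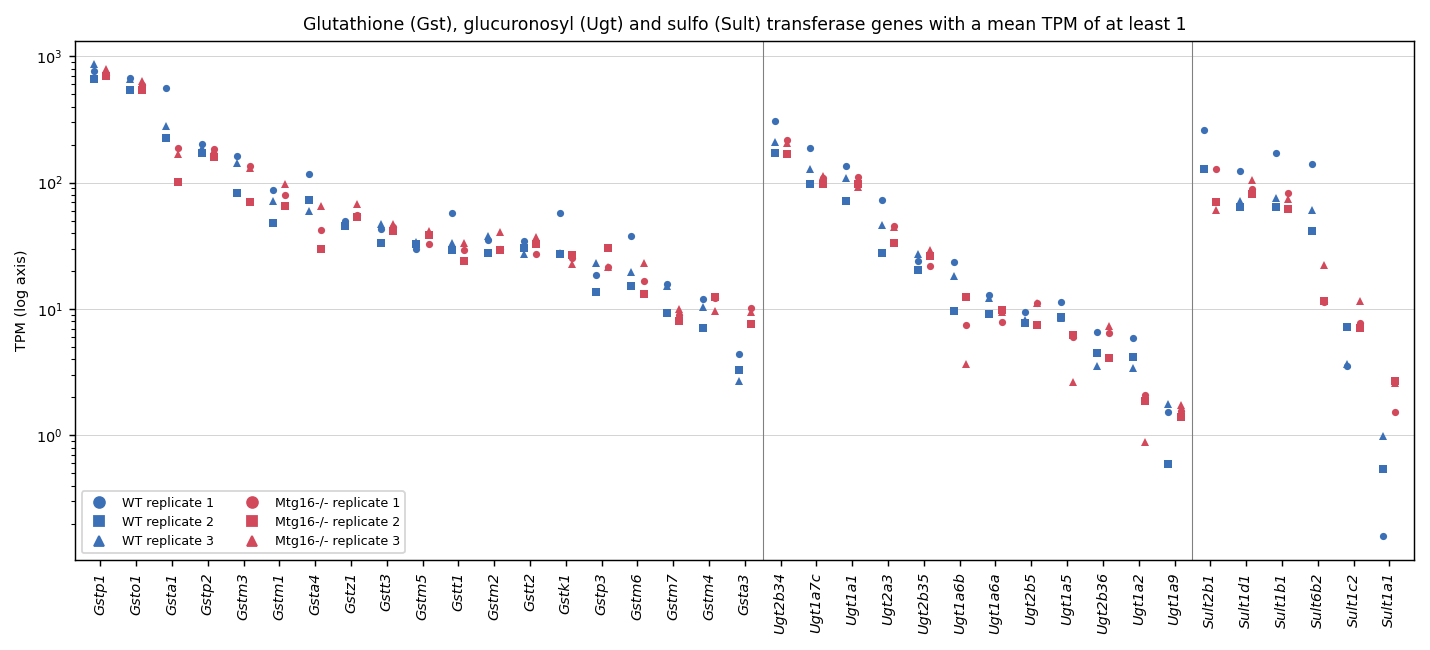
TPM (log axis) of the 37 tested transferase genes in each library, ordered by mean level within the Gst, Ugt and Sult families; blue marks are WT, red marks are Mtg16-/-, and the shape gives the replicate. Sult6b2 and Gsta1 sit lower, and Gsta3 and Sult1a1 higher, in all 3 Mtg16-/- libraries, while the most abundant genes, Gstp1 and Gsto1, overlap. Sult1a1 reached the filter only through the Mtg16-/- libraries, so its separation carries no weight.

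The most abundant transferases of the crypt were cytosolic glutathione transferases, and their levels overlapped between genotypes. Gstp1, the pi-class enzyme, was at 764 ± 102 TPM in WT and 735 ± 54.2 TPM in Mtg16-/- (mean ± SD, n = 3 mice a group here and below; log2 difference -0.05 ± 0.16). Gsto1, the omega-class enzyme that reduces dehydroascorbate, was at 623 ± 69.6 and 590 ± 49.6 TPM (-0.08 ± 0.15, and -0.02 without WT replicate 1). Gstp2 was at 187 and 176 TPM. Gstp1 and Gstp2 share sequence (33.7% of the 50-base windows of Gstp1 occur in Gstp2), so the division of reads between them is uncertain. Gstp3 was at 13.6 to 23.2 TPM in WT and 21.4 to 30.3 TPM in Mtg16-/-, with overlap (0.40 ± 0.22, adjusted p = 0.418).

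The alpha class, which conjugates lipid peroxidation products, held differences in both directions. Gsta1 was at 557, 226 and 281 TPM in WT and at 187, 102 and 169 TPM in Mtg16-/-. Every Mtg16-/- library lay below every WT library, with WT replicate 1 far above the rest. The log2 difference was -1.15 ± 0.35 (adjusted p = 0.272) and -0.76 without WT replicate 1, again without overlap. Gsta1 lies on chromosome 9 (78230669 to 78242683) and is nearly repeated by other genes: 90.5% of its 50-base windows occur elsewhere, and 75.7% of all its windows occur in Gm3776, which was at 162, 89.4 and 86.5 TPM in WT and 51.0, 38.0 and 85.7 TPM in Mtg16-/-. Summed with its copies Gsta2, Gm3776 and Gm10639, the level was 719, 316 and 368 TPM in WT and 239, 142 and 257 TPM in Mtg16-/- (-1.08 ± 0.34, adjusted p = 0.272), and these ranges did not overlap either. Gsta4, a neighbor that conjugates 4-hydroxynonenal and shares no window with another gene, was at 116, 72.5 and 59.2 TPM in WT and 42.3, 29.7 and 65.9 TPM in Mtg16-/-. Mtg16-/- replicate 3 lay inside the WT range, and the log2 difference was -0.85 ± 0.32 (adjusted p = 0.311).

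Gsta3, an alpha-class gene on chromosome 1 (21240565 to 21265575) known in the mouse for detoxifying the epoxide of aflatoxin, stood on the other side. Its level was 4.42, 3.29 and 2.68 TPM in WT and 10.1, 7.57 and 9.49 TPM in Mtg16-/-. All 3 Mtg16-/- values exceeded all 3 WT values, and the ratio of the mean TPM was 2.62. The log2 difference was 1.18 ± 0.20, with the smallest adjusted p of any transferase gene (0.141). Without WT replicate 1 it was 1.33 and passed the threshold (adjusted p = 0.0998), as 40 of 12216 genes did (0.327%). Only 0.273% of its windows were shared, so it was measured apart from Gsta1.

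The mu class, 7 genes in a row on chromosome 3 (107895854 to 108045179), differed little. The summed level was 381, 223 and 332 TPM in WT and 317, 238 and 354 TPM in Mtg16-/- (log2 difference -0.03 ± 0.23, and 0.14 without WT replicate 1). All 7 overlapped between groups. Gstm7 had the only unadjusted p under 0.05 among them, with 15.8, 9.36 and 15.2 TPM in WT and 9.04, 8.03 and 10.1 TPM in Mtg16-/- (-0.50 ± 0.21, adjusted p = 0.336). Gstm6 was at 24.3 ± 12.1 and 17.7 ± 5.15 TPM (-0.37 ± 0.33, and -0.01 without WT replicate 1). Gstm3 was at 129 ± 41.1 and 113 ± 36.5 TPM. Gstm1 was at 69.3 ± 20.1 and 81.0 ± 15.8 TPM. Gstm2, Gstm4 and Gstm5 had log2 differences from -0.02 to 0.22, and from 0.02 to 0.37 without WT replicate 1.

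The remaining glutathione transferases belong to other classes. Gstz1, the zeta-class enzyme that isomerizes maleylacetoacetate in tyrosine breakdown, was at 49.8, 45.3 and 46.4 TPM in WT and 55.2, 53.4 and 67.6 TPM in Mtg16-/-. The groups did not overlap, but the difference was small (0.30 ± 0.13, adjusted p = 0.339). Gstk1, the kappa-class enzyme of mitochondria and peroxisomes, was at 57.2, 27.0 and 27.7 TPM in WT and 25.4, 26.8 and 22.6 TPM in Mtg16-/-. Most of its log2 difference of -0.48 ± 0.27 (adjusted p = 0.435) lay in WT replicate 1, without which it was -0.13. Among the theta-class genes, Gstt1 was at 40.1 ± 15.6 and 29.0 ± 4.71 TPM (-0.40 ± 0.25, and -0.11 without WT replicate 1), and Gstt2 and Gstt3 had differences of 0.06 and 0.12 (0.14 and 0.16 without it).

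The glucuronosyltransferases were led by Ugt2b34 (230 ± 70.9 TPM in WT and 198 ± 25.1 TPM in Mtg16-/-), Ugt1a7c (138 ± 45.4 and 106 ± 7.61 TPM) and Ugt1a1, the bilirubin-conjugating enzyme (106 ± 32.4 and 99.8 ± 9.24 TPM), and all 3 overlapped between groups. The Ugt1a genes lie in one locus on chromosome 1 (88055411 to 88220002), where variable first exons are spliced to 4 common exons that begin at 88215044. The 4 exons make up 57.07% to 70.14% of the compared transcripts. The rest is partly shared too. The transcripts compared for Ugt1a6b and Ugt1a7c, those with the most exons, had the same first exon (88103252 to 88103378). RefSeq places the start of Ugt1a7c elsewhere, at 88095001. Of the 50-base windows of Ugt1a6b, 79.8% occur in another gene, so the division of reads among these genes is uncertain. Summed over the locus, the level was 379, 202 and 282 TPM in WT and 243, 227 and 223 TPM in Mtg16-/-, with overlap (-0.27 ± 0.22, adjusted p = 0.566; -0.05 without WT replicate 1).

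Within that locus, 3 genes of low level had the most negative differences. Ugt1a2 was at 5.91, 4.21 and 3.39 TPM in WT and 2.09, 1.88 and 0.88 TPM in Mtg16-/-. Its log2 difference was -1.08 ± 0.27 (adjusted p = 0.247, and -0.90 without WT replicate 1). The size of that difference depends on the value added before the log, and was -1.47 with 0.1 in place of 1. Of the windows of Ugt1a2, 63.7% occur in Ugt1a5. Ugt1a5 was at 11.4, 8.60 and 8.56 TPM in WT and 5.99, 6.21 and 2.63 TPM in Mtg16-/- (-0.88 ± 0.28, adjusted p = 0.279; -0.75 without WT replicate 1). Neither overlapped between groups, with or without that library. Ugt1a6b, of the phenol-conjugating Ugt1a6 type, was at 23.6, 9.60 and 18.4 TPM in WT and 7.46, 12.4 and 3.65 TPM in Mtg16-/-. Its groups overlapped (-1.09 ± 0.42, adjusted p = 0.312), and 79.6% of its windows occur in Ugt1a6a, which was at 11.4 ± 1.95 and 9.01 ± 1.03 TPM. Ugt1a9 was near 1 TPM, with 1.3 ± 0.63 and 1.56 ± 0.17 TPM.

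The Ugt2 genes share a stretch of chromosome 5 (86889770 to 87591611) with Sult1b1, Sult1d1 and Sult1e1. None of the 5 tested Ugt2 genes was without overlap. Their log2 differences ran from -0.17 (Ugt2b34) through -0.16 (Ugt2a3), 0.11 (Ugt2b35) and 0.19 (Ugt2b5) to 0.25 (Ugt2b36). Without WT replicate 1 they were 0.06 for Ugt2b34, 0.18 for Ugt2a3 and 0.45 for Ugt2b36. Ugt2b genes conjugate steroids and drugs, and their sum was 268 ± 74.4 TPM in WT and 241 ± 28.2 TPM in Mtg16-/- (-0.12 ± 0.21, and 0.09 without WT replicate 1).

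**Figure D2:**
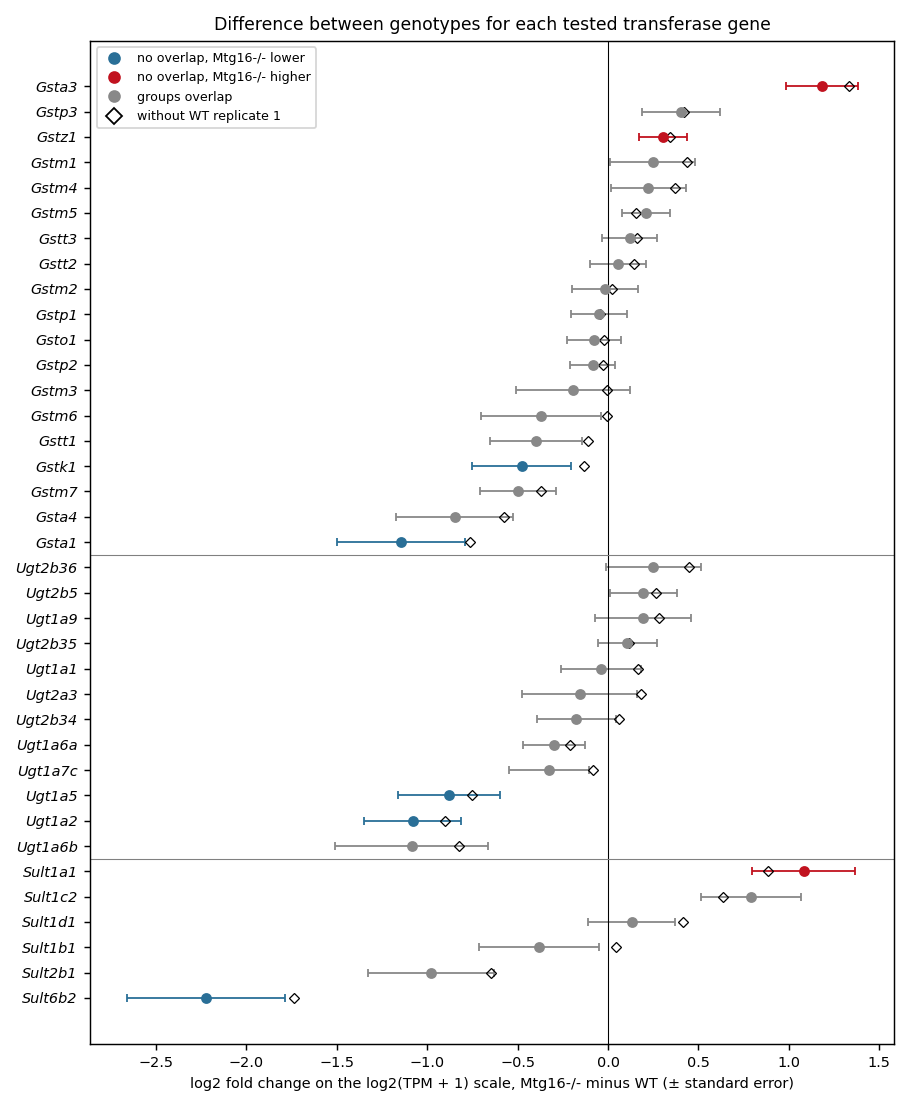
Log2 difference (Mtg16-/- minus WT, log2(TPM + 1) scale) of each tested transferase gene with its standard error, colored by whether the values of the genotypes overlap; open diamonds give the difference without WT replicate 1. Sult6b2 has the most negative difference (-2.22) and Gsta3 the most positive (1.18), and the diamonds of most negative genes lie nearer 0.

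Only 6 of the 21 sulfotransferase genes reached the filter, and they included the widest difference of all. Sult6b2, on chromosome 6 (142785781 to 142804466), was at 140, 41.7 and 60.5 TPM in WT and 11.4, 11.5 and 22.5 TPM in Mtg16-/-. The groups did not overlap, and the mean TPM was 5.35 times as high in WT. The log2 difference was -2.22 ± 0.44 (adjusted p = 0.171), and -1.74 (adjusted p = 0.133) without WT replicate 1, still with no overlap. None of its 50-base windows occurs in another gene. Its relative Sult6b1 was listed at 0 in all 6 libraries. Sult2b1, which sulfates cholesterol and other hydroxysteroids, was at 259, 129 and 129 TPM in WT and 129, 70.7 and 60.5 TPM in Mtg16-/-. Mtg16-/- replicate 1 (129.27 TPM) just exceeded the 2 lower WT values (129.18 and 129.01 TPM), so the groups overlapped (-0.98 ± 0.35, adjusted p = 0.296; -0.65 without WT replicate 1).

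The other expressed sulfotransferases were of the Sult1 family, which acts on phenols. Sult1a1 was low in all libraries, at 0.16, 0.54 and 0.99 TPM in WT and 1.54, 2.71 and 2.58 TPM in Mtg16-/-. With a mean of 0.56 TPM in WT and 2.28 TPM in Mtg16-/-, it reached the filter only through the group where it was higher, so its place among the higher and non-overlapping genes carries no weight. The log2 difference was 1.08 ± 0.28 (adjusted p = 0.254), and without WT replicate 1 it was 0.88. Its size depends on the value added before the log: it was 2.03 with 0.1 in place of 1, and the ratio of the mean TPM was 4.04. Sult1c2 was at 3.52, 7.22 and 3.70 TPM in WT and 7.81, 7.14 and 11.6 TPM in Mtg16-/-, with a slight overlap (0.79 ± 0.28, adjusted p = 0.292). Sult1d1 and Sult1b1 were the most abundant of the family. Sult1d1 was at 124, 64.5 and 72.2 TPM in WT and 89.4, 81.3 and 105 TPM in Mtg16-/- (0.13 ± 0.24, and 0.42 without WT replicate 1). Sult1b1 was at 171, 64.7 and 75.9 TPM in WT and 82.5, 62.0 and 74.0 TPM in Mtg16-/- (-0.38 ± 0.33, and 0.04 without WT replicate 1). Without WT replicate 1, both WT values of Sult1d1 lay below the Mtg16-/- values, and those of Sult1b1 overlapped with them.

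The genes that did not reach the filter were 24. Of these, 16 were listed at 0 in every library: Sult2a1 to Sult2a8, the hydroxysteroid sulfotransferases best known from liver, with Sult1c1, Sult1e1, Sult3a1, Sult3a2, Sult6b1, Ugt1a10, Ugt2a1 and Ugt2a2. The other 8 (Gsta2, Gsto2, Gstt4, Ugt2b1, Ugt2b37, Ugt2b38, Sult4a1 and Sult5a1) had values from 0 to 1.67 TPM.

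Summed by subfamily, 0 of 16 sums were called by limma. At an unadjusted p under 0.05, 3 were lower and 3 higher, beside 8.05% and 6.53% of all tested genes. All of these but Gsta rest on a single expressed gene described above: Sult6b2 and Sult2b1 (lower), and Gstz1, Sult1c2 and Sult1a1 (higher). Gsta was the only subfamily with more than 1 expressed gene whose sums did not overlap. Its level was 678, 303 and 343 TPM in WT and 240.1, 140.0 and 246 TPM in Mtg16-/- (-1.03 ± 0.34, adjusted p = 0.282; -0.67 without WT replicate 1), most of it Gsta1. All 61 genes together came to 4457, 2820 and 3511 TPM in WT and 3120, 2685 and 3247 TPM in Mtg16-/-, with overlap.

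**Figure D3:**
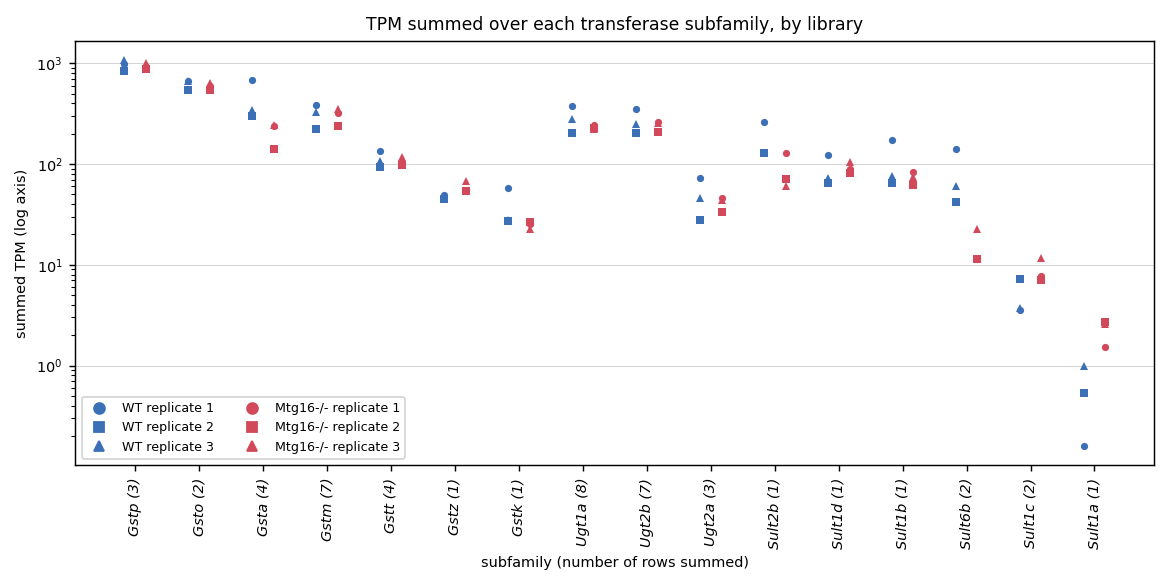
Summed TPM (log axis) of each transferase subfamily in each library, with the number of rows summed in parentheses; blue is WT, red is Mtg16-/-, and the shape gives the replicate. Subfamilies listed at or near 0 are not drawn, and of those drawn with more than 1 expressed gene, the Gsta sums alone do not overlap.

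Cell type markers differed between the libraries as well. WT replicate 1 had the highest value of the 6 libraries for 21 of the 37 genes and WT replicate 2 for none. Without WT replicate 1 the median log2 difference of the 37 genes was 0.04 (-0.0034 for Gst, 0.09 for Ugt and 0.23 for Sult genes), and 17 in place of 22 were below 0. At an unadjusted p under 0.05, 4 were then lower and 4 higher, beside 6.13% and 5.31% of all genes tested without that library, and 5 lower and 4 higher genes did not overlap (16.9% and 14.6% of all genes). The enterocyte markers were lower in Mtg16-/- for 28 of 28 genes (median -1.02, 0 called). Of these, 14 had an unadjusted p under 0.05 and 9 did not overlap, beside 8.05% and 11.1% of all tested genes in that direction. Without WT replicate 1, 27 of 28 were lower (median -0.62). Proximal small intestine markers summed to 1902 to 6404 TPM in WT and 808 to 1498 TPM in Mtg16-/-. Without Apoa4, which is also an enterocyte marker, they summed to 296 to 808 and 208 to 347 TPM, with overlap. That sum still held the enterocyte markers Lct and Slc2a5. Of the 9 proximal genes, 8 were lower and 1 higher. At an unadjusted p under 0.05, 5 were lower and 1 higher, beside 8.05% and 6.53% of all tested genes. Apoa4, Gata4, Pdx1 and Onecut2 (lower) and Hao2 (higher) did not overlap, beside 11.1% and 9.94% of all tested genes. On the other side, stem cell markers summed to 997 to 1697 TPM in WT and 1820 to 2429 TPM in Mtg16-/-, Paneth cell markers to 9807 to 22516 and 27278 to 34575 TPM, and enteroendocrine markers to 375 to 467 and 528 to 610 TPM. Colon markers summed to 381 to 651 and 816 to 1024 TPM, but without Ang4, which is also a Paneth cell marker, to 81.3 to 158 and 101 to 126 TPM, with overlap. None of these genes was called. The sums of goblet, tuft, immune, stromal, ileum and hepatocyte markers overlapped. Stromal sums (4.05 to 8.98 TPM) were low beside all others, whereas immune sums (97.02 to 447 TPM) lay above the tuft cell sums (42.8 to 91.9 TPM). The immune sum was highest in WT replicate 1. Of the 12 immune markers tested, 11 were lower and 1 higher in Mtg16-/- (median -0.35), with 0 at an unadjusted p under 0.05. In bulk crypts, fewer cells of a type and less transferase RNA per cell cannot be told apart, and the part of the markers in the transferase levels was not tested.

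**Figure D4:**
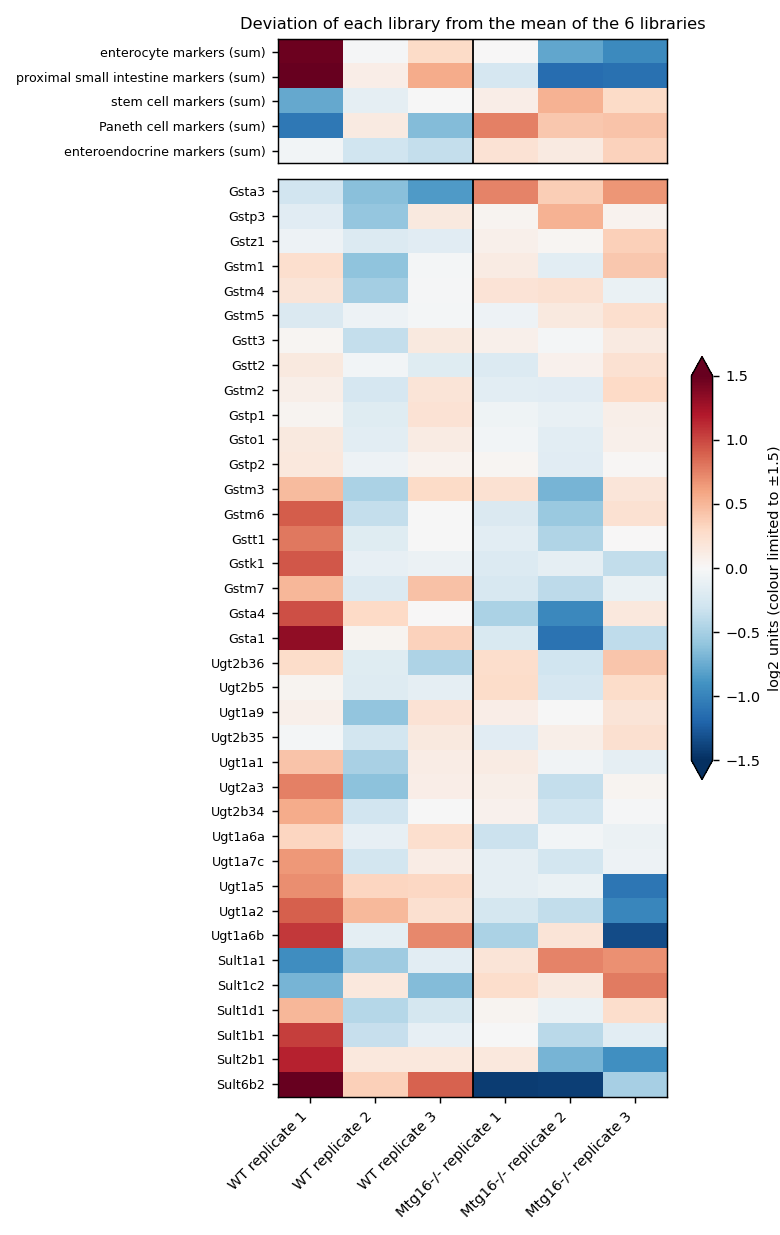
Deviation of each library from the mean of the 6 libraries in log2 units (color limited to ±1.5), for 5 marker sums (top) and the 37 transferase genes (bottom). WT replicate 1 is high for enterocyte markers, Gsta1, Sult6b2 and Sult2b1, whereas Gsta3 and Sult1a1 are high in the 3 Mtg16-/- libraries. Sult1a1 reached the filter only through those libraries.

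Genes that supply the donor molecules, export the conjugates or regulate these enzymes were also read, and 0 were called in each list. For glutathione, 21 genes were tested and 4 were lower and 1 higher at an unadjusted p under 0.05. Over all tested genes, 8.05% were lower and 6.53% higher at that p, which is also the background for the lists that follow. Slc3a2, a subunit that the cystine importer shares with other amino acid transporters, was at 209, 124 and 147 TPM in WT. In Mtg16-/- it was at 112, 84.6 and 75.2 TPM (-0.80 ± 0.22, adjusted p = 0.263). Slc7a11, the other subunit of the cystine importer, was below the filter, at 0.13 to 0.35 TPM. Mgst1, a membrane-bound glutathione transferase outside the symbol rule, was at 234, 192 and 263 TPM in WT and 291, 325 and 368 TPM in Mtg16-/- (0.52 ± 0.16, adjusted p = 0.272). Slc3a2 and Mgst1 did not overlap between groups. For glucuronic acid supply, 1 of 7 genes was lower and 0 higher at that p. The lower gene, Pgm1, was at 103 ± 21.7 and 67.7 ± 6.85 TPM (-0.58 ± 0.17), while Ugp2, which makes UDP-glucose, was at 54.3 ± 8.36 and 57.9 ± 4.69 TPM.

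The sulfate donor list held the second wide difference. Papss2, which makes the donor PAPS from ATP and sulfate, was at 545, 159 and 243 TPM in WT and 76.3, 58.0 and 64.0 TPM in Mtg16-/-, with no overlap. Its log2 difference was -2.06 ± 0.39 (adjusted p = 0.17), and -1.57 without WT replicate 1. Of the 12 tested genes of this list, 3 were lower and 0 higher at an unadjusted p under 0.05, and the positive difference with the smallest p was that of Slc35b2, the Golgi PAPS transporter (0.24 ± 0.12, adjusted p = 0.392).

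Of 10 conjugate export genes none had an unadjusted p under 0.05. Slc51b, a subunit of the basolateral bile acid transporter, was at 145 ± 39.3 and 97.3 ± 45.2 TPM (-0.63 ± 0.34), and Abcc5 at 4.43 ± 1.26 and 6.0 ± 1.24 TPM (0.38 ± 0.23). Among 15 other detoxification enzymes, 3 were lower and 2 higher at that p. Ephx2, soluble epoxide hydrolase, was at 367, 116 and 163 TPM in WT and 108, 69.5 and 74.0 TPM in Mtg16-/- (-1.20 ± 0.39, adjusted p = 0.279; -0.73 without WT replicate 1). Nqo1, a quinone reductase, was at 32.1, 40 and 39.4 TPM in WT and 52.1, 45.9 and 60.1 TPM in Mtg16-/- (0.49 ± 0.15, adjusted p = 0.266). Of 21 sensing and enterocyte transcription factors, 3 were lower and 2 higher. Gata4 was at 95.9 ± 10.1 and 71.0 ± 2.15 TPM (-0.42 ± 0.12) and Cdx2 at 160 ± 20.6 and 218 ± 5.51 TPM (0.45 ± 0.13), without overlap. Nfe2l2, which acts through the antioxidant response element, was at 215 ± 39.4 and 163 ± 11.6 TPM (-0.39 ± 0.16, adjusted p = 0.318; -0.25 without WT replicate 1), also without overlap. Hnf4a (576 ± 34.9 and 551 ± 24.8 TPM), the xenobiotic receptor gene Nr1i2 (76.2 ± 9.37 and 60.8 ± 8.83 TPM) and Ahr (9.36 ± 2.16 and 8.18 ± 2.31 TPM) overlapped.

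**Figure D5:**
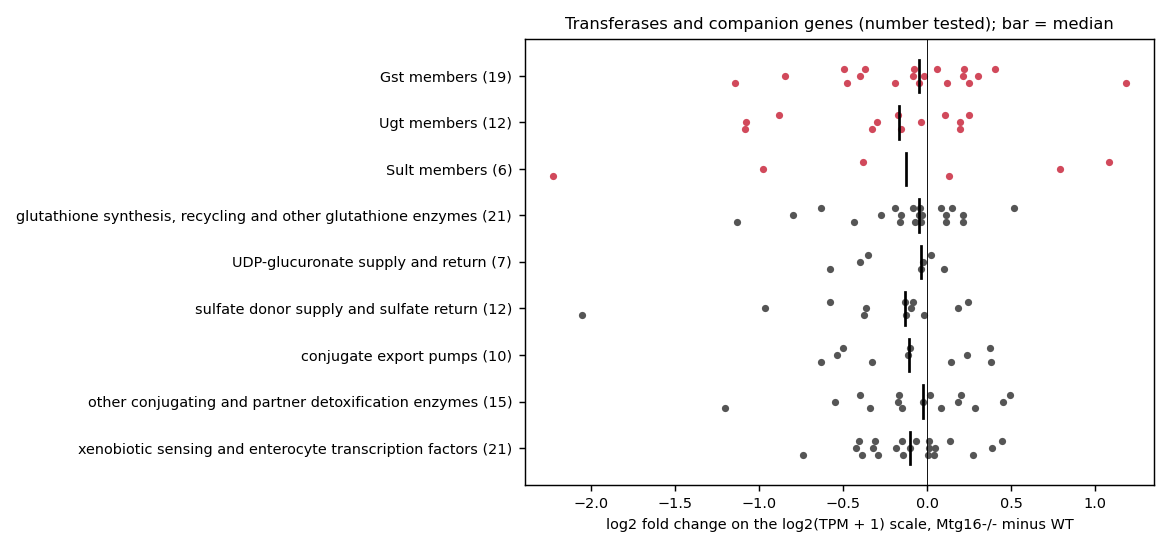
Log2 differences (Mtg16-/- minus WT, log2(TPM + 1) scale) of the tested transferase genes by family (red) and of the genes in 6 companion lists (gray), with the median of each as a bar and the number tested in parentheses. The medians lie between -0.17 and -0.03, and Sult6b2 (-2.22) and Papss2 (-2.06) are the 2 values below -2.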

How the data were processed

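RNA-seq libraries were prepared by the study from total RNA after ribosomal depletion, for 3 WT and 3 Mtg16-/- mice. The authors deposited one table of TPM values with 2 decimals, estimated per gene, with no counts. The submitters' processing notes name cutadapt 1.9.1, STAR 2.5.2a, RSEM 1.3.0, DESeq2 1.12.3 and the build mm10, and their parameters are not given in the sources used here. TPM keeps no depth, so no counting interval could be given and low values are the least certain. The table was mapped by its column names, and 0 sample columns were left out.

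log2(TPM + 1) of the 12268 genes with a mean of at least 1 TPM was fitted with limma 3.58.1 (R 4.3.3, eBayes with an intensity trend, no covariate). P-values were adjusted by Benjamini-Hochberg over all tested genes, and the threshold was 0.1. Library labels were the only grouping, and the 3 libraries of a group are stated to be biological replicates. A test of a single gene by exact permutation of 3 against 3 libraries cannot go below 0.1 and was not used. The fit was tested on simulated data. The noise drawn there was independent for each gene, without the shared library differences seen here, so the simulation does not bear on those. Genomic positions and upstream sequences came from RefSeq on GRCm38.p6, with a window for 54 of the 61 genes. Sharing of 50-base windows and of exons was counted on GENCODE vM21 transcripts. The transferase genes and the marker and companion lists were chosen with earlier results of these data known. All transferase genes with a mean of at least 1 TPM were described. Of each companion list, the gene with the smallest unadjusted p in each direction was named, together with Nfe2l2, Hnf4a, Ahr and Nr1i2. Slc7a11 was named after the values were seen. Other filters, pseudocounts, rescalings, weights, moderation settings, a replicate block and leaving out each library were tried. After the values were seen, Gsta1 was also summed with its copies, and 2 marker sums were repeated without a gene that another list holds.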

Additional observations from a re-analysis of the deposited data

How the results depend on the processing

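Over the whole table, 4 genes were called, and this count moved with most settings: 0 with an adjusted p under 0.05, with no filter, with median-ratio rescaling and with no intensity trend, 1 with quantile normalization, 15 with a mean of at least 5 TPM, 20 with robust moderation, 855 with array weights, and 0 to 40 when 1 library was left out. The count of transferase genes called was 0 under those settings, except for 5 (3 of them lower) with array weights and 1 (Gsta3) without WT replicate 1, a range of 0 to 1 over the libraries left out. Subfamily sums called went from 0 to 3 with array weights. Transferase genes with an unadjusted p under 0.05 were 12, and 7 to 13 with 1 library left out, the lowest without Mtg16-/- replicate 3. Over all tested genes that p was reached by 8.05% (lower) and 6.53% (higher), and by 6.13% and 5.31% without WT replicate 1. Transferase genes without overlap were 8, and 9 to 17 with 1 library left out, the highest without WT replicate 2. Over all tested genes, non-overlap rose from 11.1% (lower) and 9.94% (higher) to 16.9% and 14.6% without WT replicate 1. Shares over all genes are not given for the other libraries left out, so these counts are not read as results about the transferases.

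Replicate numbers are shared by the genotypes, but nothing in the labels says that a number marks a shared litter or day. Once group means were removed, libraries with the same number correlated at 0.0753 to 0.429, above 0.1 in 2 of 3 pairs, and 5 of 6 libraries correlated best with the library of their own number, which is a hint from the data and not from the design. With the replicate number as a block, 1201 genes (9.79%), 7 of the 37 transferase genes (5 lower and 2 higher, 18.9%) and 4 subfamily sums were called.

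Differences near 0 changed sign with single settings. Median-ratio rescaling gave Gstm2 0.0044, and quantile normalization gave Gstm2 0.044, Gstp1 0.0041, Gstp2 0.048, Ugt1a1 0.075, the Gstm sum 0.063 and the Gstt sum 0.033. With 1 library left out, log2 differences ranged from -0.17 to 0.077 for Gstm2, -0.48 to 0.11 for Gstm3, -0.15 to 0.044 for Gstp1, -0.045 to 0.17 for Gstt2, -0.027 to 0.22 for Gstt3, -0.65 to 0.044 for Sult1b1 and its sum, -0.051 to 0.42 for Sult1d1 and its sum, -0.29 to 0.17 for Ugt1a1, -0.051 to 0.35 for Ugt1a9, -0.51 to 0.18 for Ugt2a3 and its sum, -0.36 to 0.059 for Ugt2b34 and -0.0061 to 0.22 for Ugt2b35. The sums ranged from -0.25 to 0.14 for Gstm, -0.14 to 0.033 for Gstp, -0.20 to 0.076 for Gstt and -0.30 to 0.087 for Ugt2b. The causes were not tested. Depth is unknown, so the precision of low values such as Sult1a1 and Ugt1a2 cannot be given.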
